A study of Homo sapiens with 6 samples.

Results

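Bone morphogenetic proteins (BMPs) and transforming growth factor-beta (TGF-β) are secreted signals that bind paired serine/threonine kinase receptors. The receptors phosphorylate SMAD proteins, which join *SMAD4*, enter the nucleus and switch on a set of response genes. In the colon, BMP signals are known for restraining stem cells and accompanying epithelial maturation along the crypt. Described here are 10 genes of this response, taken by gene name from the 63241 genes in the deposited table. They are the inhibitors of DNA binding *ID1*, *ID2*, *ID3* and *ID4*, the feedback inhibitors *SMAD6*, *SMAD7* and *BAMBI*, the ligands *BMP2* and *BMP4*, and the TGF-β-induced matrix protein gene *TGFBI*. Each name matched 1 gene, and the rule uses names and no measured value, although the genes were proposed with earlier results of these data known.

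The data are RNA-seq libraries of HT-29 cells, a human colorectal adenocarcinoma line, 3 from cells given buffer (Control) and 3 from cells given 0.5 μM Amuc_0904, both for 72 h. Amuc_0904, written A904 in the labels, is an outer membrane protein of the gut bacterium *Akkermansia muciniphila*, and was made in *Escherichia coli*. Both groups grew in the same serum-containing medium. A single cell line, dose and time were sampled, and whether replicates were separate cultures is not stated, so p-values measure only the spread between these libraries. HT-29 cells are known, as background, to lack functional *SMAD4*. Values are TPM, which scale reads by gene length to a share of the library, without counts, so the depth of each library and the counting error of a value are unknown.

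Library identity was checked first. On the first principal component (35.5% of variance) controls lay from −13.0 to −12.4, and Amuc_0904 replicates 2 and 3 at 20.4 and 22.8. Amuc_0904 replicate 1 lay between them, at −4.79. On the second component (19.6% of variance) Amuc_0904 replicate 1 lay at 22.7, apart from all other libraries, which lay from −15.3 to 2.78. The share of TPM from mitochondrial transcripts was 12.8% to 13.5% for controls, 13.0% for Amuc_0904 replicate 1, and 10.6% and 11.1% for Amuc_0904 replicates 2 and 3. Values without Amuc_0904 replicate 1 are given below for every member tested. For other named pathway genes they are given where leaving that library out changed a call or moved the difference by over 1.5 times. None are given for the marker genes, so whether their calls change is not shown. Of 11 colon epithelium markers 10 reached the test, although *CDX1* and *CDX2*, intestinal transcription factors, stayed at 0.46 to 1.71 TPM and *CEACAM5* at 1.18 to 3.79 TPM. The summed level of the 11 markers was 7140 to 7180 TPM in controls and 7150 to 7980 TPM in treated libraries. Of 8 fibroblast markers 2 reached the test (*COL1A1* and *LUM*, at 0.51 to 1.87 TPM) and 3 (*COL1A2*, *POSTN* and *THY1*) were listed at 0 throughout. The fibroblast sums were 2.05 to 2.38 TPM in controls and 1.75 to 2.92 TPM in treated libraries. Of 8 leukocyte markers 3 reached the test (*CD14*, *CD68* and *ITGAM*), with sums of 14.8 to 20.9 and 11.2 to 16.8 TPM. *CD68* was at 8.13 to 13.79 TPM and *ITGAM* at 0.69 to 1.95 TPM, while the pan-leukocyte gene *PTPRC* was at most 0.02 TPM. Of 4 endothelial markers 1 reached the test (*PECAM1*, at 0.62 to 1.51 TPM), with sums of 0.63 to 1.52 and 0.92 to 1.5 TPM. *KDR* and *CDH5* were listed at 0. Of these marker genes 0 were called higher or lower by limma, where 0.0698% and 0.167% of all genes tested were. Of the 10 tested colon epithelium markers 6 had a higher mean and 4 (*EPCAM*, *CDH1*, *KRT19* and *CDX2*) a lower mean. An unadjusted p under 0.05 was reached by 3 of the 10 (*KRT8*, *LGALS4* and *CEACAM5*), with higher means. It was also reached by 1 of the 3 tested leukocyte markers, with a lower mean. Beside these stand 9.95% higher and 5.87% lower among all genes. The smallest p belonged to *CD14*, a monocyte marker (limma adjusted p = 0.15). *CD14* was at 4.65 to 4.76 TPM in controls and 1.89 to 2.85 TPM in treated libraries. The single markers named here were named after their values were seen. The part of markers and mitochondrial share in the results below was not tested.

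The promoter stretches of *BMP4*, *ID1* and *ID4* are printed because these genes were the highest, the third and the lowest in the levels described below. Sequences are from RefSeq on GRCh38.p14, on the coding strand from 5′ to 3′, and overlap no exon of GENCODE 29. Starts are those of RefSeq, and the *BMP4* window lies inside the gene body of longer annotated *BMP4* transcripts. The *BMP4* window is chr14:53955051-53955300 on the minus strand, the *ID1* stretch is chr20:31605039-31605282 on the plus strand, and the *ID4* window is chr6:19837120-19837369 on the plus strand. Capitals mark GGCGCC, a GC-rich element that BMP-activated SMADs are known to bind, and TATAAA, the TATA box, each searched on both strands. In *ID1* a match on each strand overlaps, giving 1 run of 8 capitals.
BMP4: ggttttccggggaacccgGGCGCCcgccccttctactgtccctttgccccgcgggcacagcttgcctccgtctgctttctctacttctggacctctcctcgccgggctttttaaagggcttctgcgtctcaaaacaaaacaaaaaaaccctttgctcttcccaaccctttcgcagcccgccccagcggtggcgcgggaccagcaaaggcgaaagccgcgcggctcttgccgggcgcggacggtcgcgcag
ID1: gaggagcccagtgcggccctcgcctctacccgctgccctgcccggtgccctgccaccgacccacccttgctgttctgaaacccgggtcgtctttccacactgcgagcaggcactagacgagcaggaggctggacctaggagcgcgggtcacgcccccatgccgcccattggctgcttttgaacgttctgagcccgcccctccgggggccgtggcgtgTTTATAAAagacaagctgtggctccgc
ID4: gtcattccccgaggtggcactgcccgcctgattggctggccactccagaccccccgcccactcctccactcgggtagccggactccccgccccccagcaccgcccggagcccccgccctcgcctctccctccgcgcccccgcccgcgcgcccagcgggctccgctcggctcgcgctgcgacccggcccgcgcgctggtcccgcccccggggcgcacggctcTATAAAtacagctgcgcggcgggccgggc
Of the 10 genes 9 had an entry in the promoter table, with 13 windows of 250 bases upstream of a start. GGCGCC was present in 3 of the 13 windows (1 each of *BAMBI*, *BMP4* and *TGFBI*), and 16.4% of all 35116 promoter windows held it. *BMP4* had 3 windows, for separate starts, and of these only the printed one held this element. GTCT, the short SMAD-binding sequence, was searched on both strands and found in 12 of the 13 windows, against 77.5% of all windows. *SMAD7* had 5, 4 and 1 GTCT matches in its 3 windows, *BAMBI* had 4, *ID1* had 3, *ID2* and *ID3* had 2 each, and *ID4* had 1, while a *BMP4* window had 0. TATAAA was present in 3 of the 13 windows (1 each of *ID1*, *ID4* and *SMAD7*), against 10.7% of all windows, and began 33 and 31 bases before the start in *ID1* and 29 bases before it in *ID4*. Of the 13 windows 12 held more CG dinucleotides than the median of all windows, which was 11. The most were in *BAMBI*, *ID4* and *ID2*, at 41, 34 and 29, and the fewest in a *SMAD7* window, at 2. *ID4*, listed at 0 in every library, and *ID1*, expressed in every library, both held a TATAAA near the start. No base outside these windows was searched, and a match is a description of letters only.

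Levels of the 10 genes spanned 3 ranges. *BMP4* stood at 395.30 to 408.38 TPM in controls, which placed it at rank 308 of the whole table by control mean. *ID2*, *ID1*, *TGFBI*, *SMAD6*, *BMP2* and *SMAD7* followed in that order between 69.60 and 7.18 TPM. *ID3*, *BAMBI* and *ID4* stayed below 1 TPM. No 2 neighbours in this order overlapped among control libraries. With Amuc_0904 the order of the means was unchanged, and the ranges of *BMP2* and *SMAD7*, and of *ID3* and *BAMBI*, overlapped.

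**Figure D1:**
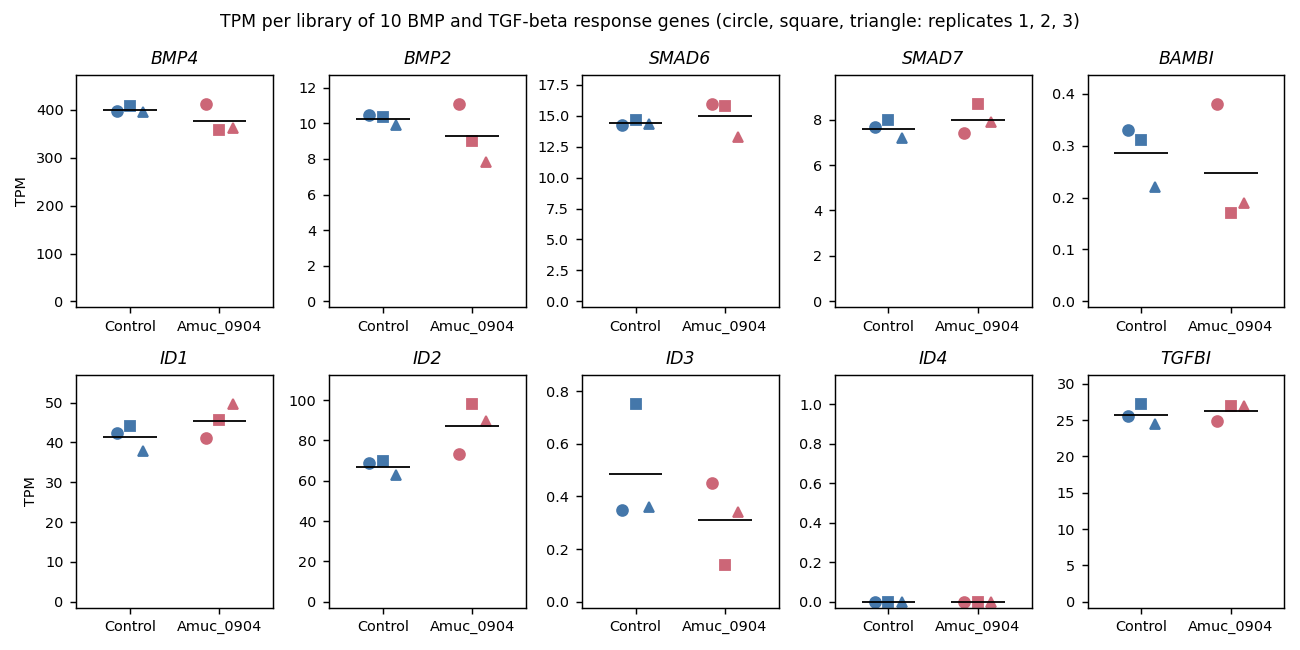
TPM (vertical axis, starting at 0, a separate scale per gene) in the 3 Control and 3 Amuc_0904 libraries for each of the 10 genes, with circles, squares and triangles for replicates 1, 2 and 3 and black bars for group means. The treated libraries lie above all controls only for *ID2*, and *ID4* is at 0 in all 6 libraries.

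A gene entered the test if 3 or more libraries reached 1 TPM, which held for 7 of the 10. Their log2(TPM + 1) values were fitted by limma together with those of all 14333 genes that met this filter, and the Benjamini-Hochberg adjustment covered all of them. Fold changes and their intervals are therefore on the scale of TPM + 1, which understates the change of low genes. *ID3*, *BAMBI* and *ID4* were below this filter. Of the 7 genes tested, 0 were called higher and 0 lower at an adjusted p under 0.05 by limma, the only tool run, where 0.0698% of all genes tested were called higher and 0.167% lower. An unadjusted p under 0.05 was reached by 1 of the 7 with a higher mean and 0 with a lower mean, beside 9.95% and 5.87% of all genes. The treated and control libraries did not overlap for 1 of the 7, which was higher, beside 13.4% higher and 7.59% lower among all genes. The median log2 fold change of the 7 was 0.051, against 0.0015 over all genes tested. Of the 7, 5 had a higher mean and 2 a lower mean, where 50.4% of all genes tested had a higher mean. The RNA comes from whole cultures, in which fewer cells of a type and less RNA per cell cannot be told apart.

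The ligand genes came first in level. *BMP4*, which encodes a BMP ligand, lies on GRCh38 at chr14:53949736-53958761 and is read from the minus strand. *BMP4* measured 397.01, 408.38 and 395.30 TPM in Control replicates 1, 2 and 3, and 412.15, 358.72 and 361.82 TPM in Amuc_0904 replicates 1, 2 and 3. Amuc_0904 replicate 1 was above every control and Amuc_0904 replicates 2 and 3 were below every control, so the groups overlapped. The log2 fold change was −0.087 (SE 0.063, limma adjusted p = 0.532), an interval of 0.85 to 1.04 times the control level at 95% confidence. Without Amuc_0904 replicate 1 the log2 fold change was −0.15, with a limma adjusted p = 0.0132. *BMP2*, the gene of a closely related ligand, lies at chr20:6767664-6780280. *BMP2* measured 10.48, 10.35 and 9.89 TPM in the controls, and 11.08, 9.01 and 7.84 TPM in the treated libraries. Its libraries fell in the same pattern as those of *BMP4*, with replicate 1 above and replicates 2 and 3 below every control. *BMP2* had a log2 fold change of −0.14 (SE 0.12, limma adjusted p = 0.602), with an interval of 0.75 to 1.10 times control, and without Amuc_0904 replicate 1 it was −0.26 (limma adjusted p = 0.0795). *BMP4* stood 37.9 to 40.0 times as high as *BMP2* in the controls and 37.2 to 46.2 times as high in the treated libraries.

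Of the feedback inhibitors, *SMAD6* and *SMAD7* had log2 fold changes smaller in size than those of *BMP4* and *BMP2*, with overlapping intervals. *SMAD6*, an inhibitory SMAD that acts mainly on BMP receptors, lies at chr15:66702228-66782848. *SMAD6* measured 14.21, 14.67 and 14.29 TPM in the controls, and 15.93, 15.77 and 13.26 TPM in the treated libraries. Amuc_0904 replicates 1 and 2 were above and replicate 3 below every control, a split unlike that of the ligands. Its log2 fold change was 0.051 (SE 0.083, limma adjusted p = 0.80), with an interval of 0.904 to 1.19 times control. It was 0.0071 without Amuc_0904 replicate 1, 0.014 without Amuc_0904 replicate 2 and 0.13 without Amuc_0904 replicate 3. *SMAD7*, an inhibitory SMAD that acts on TGF-β and BMP receptors, lies at chr18:48919853-48952052. *SMAD7* measured 7.67, 7.96 and 7.18 TPM in the controls, and 7.41, 8.68 and 7.88 TPM in the treated libraries. The groups overlapped, and the log2 fold change was 0.062 (SE 0.087, limma adjusted p = 0.762), with an interval of 0.906 to 1.20 times control. It was 0.11 without Amuc_0904 replicate 1, 0.0075 without Amuc_0904 replicate 2 and 0.026 without Control replicate 3. The ratio of *SMAD6* to *SMAD7* was 1.84 to 1.99 in the controls and 1.68 to 2.15 in the treated libraries. *BAMBI*, a decoy receptor that lacks the kinase domain, lies at chr10:28677342-28682939. *BAMBI* measured 0.33, 0.31 and 0.22 TPM in the controls, and 0.38, 0.17 and 0.19 TPM in the treated libraries. These ranges overlapped and lay below the filter.

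The *ID* genes encode helix-loop-helix proteins that lack a DNA-binding region and hold E proteins away from DNA. They are among the most direct BMP targets known. *ID2*, at chr2:8678845-8684453, gave the largest difference of the 7 tested genes. *ID2* measured 68.63, 69.60 and 62.89 TPM in the controls, and 73.36, 97.85 and 89.55 TPM in the treated libraries. All 3 treated libraries were above all 3 controls, with Amuc_0904 replicate 1 nearest to them. The mean was 67.0 ± 3.63 TPM (SD, n = 3) in controls and 86.9 ± 12.5 TPM (SD, n = 3) with Amuc_0904. The log2 fold change was 0.36 (SE 0.11, limma adjusted p = 0.238), with an interval of 1.08 to 1.52 times control, and it stood at rank 617 of all tested genes by p. *ID2* did not pass the adjusted threshold. Relative to the control mean, log2(TPM + 1) was higher by 0.13 in Amuc_0904 replicate 1, by 0.54 in replicate 2 and by 0.41 in replicate 3. Without Amuc_0904 replicate 1 the log2 fold change was 0.48 and passed (limma adjusted p = 0.00551). In that setting 1 of the 7 members was called higher (*ID2*) and 1 lower (*BMP4*), beside 9.34% and 8.85% of all genes. With limma array weights, which give a library that varies more a lower weight, *ID2* had a log2 fold change of 0.45 (limma adjusted p = 0.0122). There 1 of the 7 was called higher and 0 lower, beside 9.17% and 7.37% of all genes. The antisense gene *ID2-AS1*, which overlaps *ID2*, was at 0.90 to 1.51 TPM, and whether reads were counted by strand is not stated.

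*ID1*, at chr20:31605283-31606515, measured 42.40, 44.03 and 37.76 TPM in the controls, and 41.14, 45.77 and 49.56 TPM in the treated libraries. Amuc_0904 replicates 2 and 3 were above every control while replicate 1 lay within their range. The log2 fold change was 0.13 (SE 0.087, limma adjusted p = 0.493), with an interval of 0.951 to 1.26 times control, and it was 0.20 without Amuc_0904 replicate 1 (limma adjusted p = 0.122). The ratio of *ID2* to *ID1* was 1.62, 1.58 and 1.67 in the controls, and 1.78, 2.14 and 1.81 in the treated libraries. The treated ratios all exceeded the control ratios, as the *ID2* values themselves did, so the ratio is not separate evidence. An exact permutation test on 3 plus 3 libraries is limited to a smallest 2-sided p of 0.1. *ID3*, at chr1:23557918-23559794, measured 0.35, 0.75 and 0.36 TPM in the controls, and 0.45, 0.14 and 0.34 TPM in the treated libraries. *ID4*, at chr6:19837386-19840684, was listed at 0 in all 6 libraries. *ID1* and *ID2* therefore made up nearly all of the summed *ID* level, which was 111, 114 and 101 TPM in the controls and 115, 144 and 139 TPM in the treated libraries.

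*TGFBI*, a secreted matrix protein induced by TGF-β, lies at chr5:136028895-136063818. *TGFBI* measured 25.52, 27.17 and 24.43 TPM in the controls, and 24.84, 26.94 and 26.98 TPM in the treated libraries. Every treated value lay inside the control range, the only tested member for which this was so. The log2 fold change was 0.030 (SE 0.065, limma adjusted p = 0.857), with an interval of 0.918 to 1.14 times control. It was 0.067 without Amuc_0904 replicate 1 and −0.0052 without Control replicate 3.

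**Figure D2:**
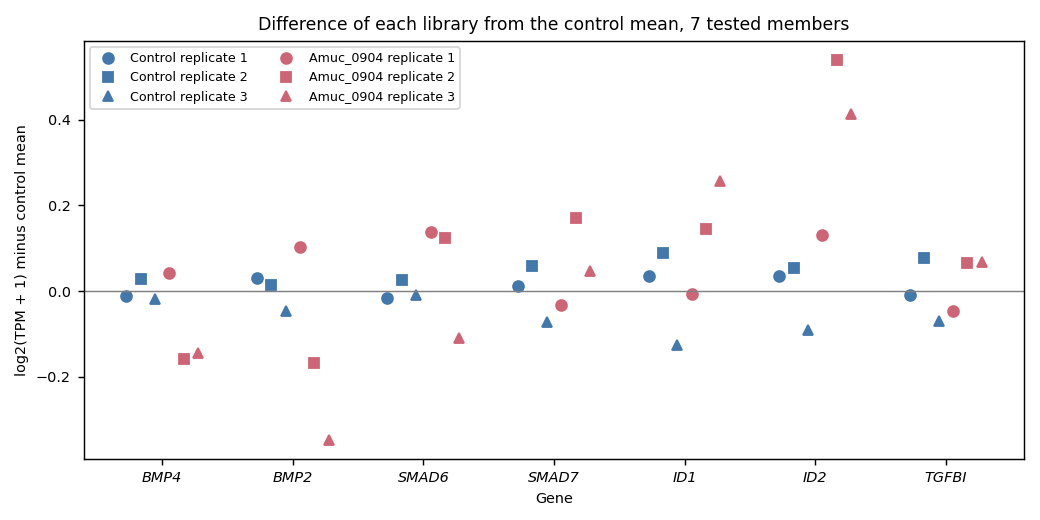
log2(TPM + 1) of each library minus the control mean for the 7 tested genes, with blue points for Control, red points for Amuc_0904, and circles, squares and triangles for replicates 1, 2 and 3. For *ID2* the treated points sit at 0.13, 0.54 and 0.41, and for *BMP4* at 0.042, −0.16 and −0.15.

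Treated libraries did not move the 7 genes one way. Amuc_0904 replicates 2 and 3 lay above the control mean for *ID1*, *ID2*, *SMAD7* and *TGFBI* and below it for *BMP2* and *BMP4*, while *SMAD6* split. Amuc_0904 replicate 1 lay above the control mean for *ID2*, *SMAD6*, *BMP2* and *BMP4*. The median of the 7 genes was 0.042, 0.12 and 0.047 above the control mean in Amuc_0904 replicates 1, 2 and 3, and controls lay between −0.069 and 0.055.

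The rest of the pathway was read from lists of 100 other genes, of which 59 were tested and 11 were listed at 0 in all libraries. By limma, 0 of the 59 were called higher and 0 lower at an adjusted p under 0.05, while an unadjusted p under 0.05 was reached by 3 with a higher and 5 with a lower mean, beside 9.95% and 5.87% of all genes. Means were higher for 19 and lower for 40 genes, where 50.4% of all genes tested had a higher mean. The counts by list below hold *PMEPA1*, *SKIL* and *TGIF1* in both the inhibitor and the target list, each with a lower mean. The median log2 fold change of the 59 was −0.063 against 0.0015 over all genes tested. Relative to the control mean that median was 0.024 in Amuc_0904 replicate 1, −0.12 in replicate 2 and −0.087 in replicate 3. The lower median therefore came from replicates 2 and 3. Without Amuc_0904 replicate 1, 5 of the 59 genes were called higher and 11 lower, beside 9.34% and 8.85% of all genes. With array weights 5 were called higher and 9 lower, beside 9.17% and 7.37% of all genes. Genes named here follow a rule on p and level, and none passed the adjusted threshold with all 6 libraries weighted equally.

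Among 7 tested genes of the ligand list 1 had a higher and 6 a lower mean, with a median log2 fold change of −0.13. That list includes *BMP1*, which encodes a protease and not a ligand. *BMP1*, a protease that also cleaves the BMP antagonist chordin, measured 8.78, 9.98 and 9.15 TPM in the controls and 8.45, 6.06 and 7.60 TPM in the treated libraries. The groups did not overlap (log2 fold change −0.31, limma adjusted p = 0.292), and *BMP1* passed only with array weights (limma adjusted p = 0.0429), where it was −0.39. *TGFB1*, the main TGF-β ligand, measured 35.00, 35.69 and 33.92 TPM and then 34.83, 30.14 and 30.66 TPM, with a log2 fold change of −0.13 (limma adjusted p = 0.408). It passed at −0.19 without Amuc_0904 replicate 1 (limma adjusted p = 0.0368) and with array weights (limma adjusted p = 0.0484). *GDF15*, a stress-induced ligand of the family, measured 24.89, 25.43 and 22.00 TPM in the controls and 27.54, 16.94 and 17.92 TPM in the treated libraries. Its replicate 1 was the highest of all 6 libraries and its replicates 2 and 3 the lowest, as for *BMP4*. *GDF15* had a log2 fold change of −0.23 (SE 0.17, limma adjusted p = 0.540), and it was −0.44 and passed without Amuc_0904 replicate 1 (limma adjusted p = 0.0133). With array weights *GDF15* passed as well (limma adjusted p = 0.0403). *TGFB3*, 1 of the 6 with a lower mean, measured 1.34, 1.01 and 1.03 TPM in the controls and 0.85, 0.69 and 0.73 TPM in the treated libraries. It met the filter only through the controls, which favours a lower treated mean. Its log2 fold change was −0.27 (limma adjusted p = 0.396), and no difference is read from it.

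Of 12 tested receptor and co-receptor genes 5 had a higher and 7 a lower mean. *TDGF1* (Cripto), a co-receptor for Nodal-type ligands, measured 8.59, 8.81 and 10.10 TPM in the controls and 13.19, 11.77 and 14.88 TPM in the treated libraries. All treated libraries, replicate 1 included, were above all controls (log2 fold change 0.49, SE 0.10, limma adjusted p = 0.193). *TDGF1* passed without Amuc_0904 replicate 1, at the same log2 fold change of 0.49 (limma adjusted p = 0.0375), and with array weights (limma adjusted p = 0.0241). The largest value of its processed copies was 0.18 TPM in *TDGF1P3*, and the overlapping gene *LRRC2* on the other strand was at 0.71 to 2.13 TPM. *TGFBR2*, the type II TGF-β receptor, was at 33.40 to 35.01 TPM and 33.08 to 38.78 TPM, with a log2 fold change of 0.073 (limma adjusted p = 0.634) that was 0.017 without Amuc_0904 replicate 1. *ACVR1B* and *ACVR1*, type I receptors, had log2 fold changes of −0.19 and −0.17 (limma adjusted p = 0.396 and 0.420). *ACVR1B* passed at −0.28 without Amuc_0904 replicate 1 (limma adjusted p = 0.0330) and with array weights (limma adjusted p = 0.0446).

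Of 6 tested genes for SMADs and their carriers, 2 had a higher and 4 a lower mean. *SMAD4*, the shared partner, measured 7.30, 5.78 and 5.95 TPM in the controls and 6.32, 5.74 and 5.32 TPM in the treated libraries (log2 fold change −0.11, limma adjusted p = 0.665, and −0.16 without Amuc_0904 replicate 1, limma adjusted p = 0.366). *SMAD2*, a TGF-β-type SMAD, was at 47.30 to 50.30 TPM in controls and 51.94 to 52.81 TPM in treated libraries, without overlap (log2 fold change 0.091, limma adjusted p = 0.409). *SMAD3*, the other TGF-β-type SMAD, had a log2 fold change of −0.12 (limma adjusted p = 0.443), and *ZFYVE9*, which presents SMADs to the receptor, one of −0.16 (limma adjusted p = 0.526). Both were called lower without Amuc_0904 replicate 1, *SMAD3* at −0.18 (limma adjusted p = 0.0344) and *ZFYVE9* at −0.28 (limma adjusted p = 0.0491). The presence of *SMAD4* transcript says nothing about the protein.

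Of 7 tested secreted antagonists and ligand traps 2 had a higher and 5 a lower mean. *SOSTDC1*, a secreted BMP and Wnt antagonist, measured 8.84, 8.94 and 9.74 TPM in the controls and 10.57, 11.41 and 11.09 TPM in the treated libraries. The groups did not overlap (log2 fold change 0.24, SE 0.074, limma adjusted p = 0.248), and *SOSTDC1* passed only with array weights (limma adjusted p = 0.0358), where it was 0.27. *LTBP3*, which holds latent TGF-β in the matrix, measured 59.33, 61.53 and 55.15 TPM in the controls and 57.99, 41.42 and 45.17 TPM in the treated libraries. Its replicate 1 lay among the controls (log2 fold change −0.29, limma adjusted p = 0.307). Without that library it was −0.43 and passed (limma adjusted p = 0.00846), as with array weights (limma adjusted p = 0.0180). *NBL1* and *TWSG1*, other BMP-binding proteins, had log2 fold changes of 0.17 and −0.064 (limma adjusted p = 0.509 and 0.584). *NBL1* passed at 0.29 without Amuc_0904 replicate 1 (limma adjusted p = 0.0497). Of the classical antagonists, *NOG* and *FST* were listed at 0 in all libraries and *GREM1* was at most 0.04 TPM. *CHRD* (chordin) was expressed, at 3.53, 3.07 and 2.87 TPM in the controls and 3.85, 1.79 and 1.61 TPM in the treated libraries. Its log2 fold change was −0.34 (limma adjusted p = 0.515). It was −0.62 and passed without Amuc_0904 replicate 1 (limma adjusted p = 0.019), and passed with array weights (limma adjusted p = 0.0427). These classical antagonists were named after their values were seen.

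All 12 intracellular inhibitors were tested, 3 with a higher and 9 with a lower mean. *PMEPA1*, a TGF-β target that holds SMADs away from the receptor, measured 28.48, 26.22 and 26.78 TPM in the controls and 22.94, 23.67 and 23.61 TPM in the treated libraries. The 3 treated values lay close together and below all controls (log2 fold change −0.21, SE 0.057, limma adjusted p = 0.236), and *PMEPA1* passed only with array weights (limma adjusted p = 0.0409), where it was −0.19. Its antisense gene *NKILA* was at 1.38 to 2.21 TPM. *FKBP1A*, an immunophilin that keeps type I receptors inactive, measured 296.96, 302.91 and 296.91 TPM in the controls and 306.61, 353.23 and 351.83 TPM in the treated libraries, without overlap (log2 fold change 0.17, limma adjusted p = 0.282). Without Amuc_0904 replicate 1 it was 0.24 and passed (limma adjusted p = 0.00294), as with array weights (limma adjusted p = 0.0146). *STRAP*, which assists *SMAD7*, was at 157.44 to 168.20 TPM in controls and at 160.25, 196.29 and 192.74 TPM in Amuc_0904 replicates 1, 2 and 3 (log2 fold change 0.15, limma adjusted p = 0.410). *STRAP* also passed without Amuc_0904 replicate 1 (0.25, limma adjusted p = 0.0092) and with array weights (limma adjusted p = 0.0277).

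Of 16 other tested target genes 4 had a higher and 12 a lower mean, with a median log2 fold change of −0.078. The 12 include *TSC22D3*, a glucocorticoid-induced gene whose response to BMP or TGF-β was not tested here. *CDKN1A*, the cell cycle inhibitor p21 and a TGF-β and p53 target, measured 9.06, 8.02 and 9.44 TPM in the controls and 5.89, 5.36 and 5.70 TPM in the treated libraries. The treated libraries agreed closely and lay below all controls (log2 fold change −0.56, SE 0.090, limma adjusted p = 0.0993). Its 95% interval was 0.585 to 0.783 times control. The adjusted threshold was missed with all libraries weighted equally and passed without Amuc_0904 replicate 1 (log2 fold change −0.59, limma adjusted p = 0.00994) and with array weights (limma adjusted p = 0.0105). *TSC22D3*, a glucocorticoid-induced leucine zipper gene, measured 62.47, 57.83 and 60.12 TPM in the controls and 50.43, 36.97 and 38.06 TPM in the treated libraries (log2 fold change −0.53, SE 0.12, limma adjusted p = 0.202). All treated libraries of *TSC22D3* were below all controls, replicate 1 by the least. Without Amuc_0904 replicate 1 the log2 fold change was −0.67 and passed (limma adjusted p = 0.00124), as it did with array weights (limma adjusted p = 0.0066). *TGIF1*, a repressor of SMAD targets, was the highest of this list, at 149.44 to 152.21 TPM in controls and 136.80 to 153.80 TPM in treated libraries. Its log2 fold change was −0.072 (limma adjusted p = 0.558), and −0.12 without Amuc_0904 replicate 1, where it passed (limma adjusted p = 0.0439). *TSC22D1*, a TGF-β-stimulated leucine zipper gene, was at 66.11 to 69.38 and 70.33 to 72.25 TPM, with a log2 fold change of 0.072 (limma adjusted p = 0.480).

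The E protein genes, whose products are the partners of the ID proteins, were tested for 2 of 3. *TCF3* measured 62.74, 56.58 and 58.47 TPM in the controls and 60.75, 68.36 and 69.03 TPM in the treated libraries, with a log2 fold change of 0.15 (limma adjusted p = 0.337). It passed at 0.21 without Amuc_0904 replicate 1 (limma adjusted p = 0.0399) and with array weights (limma adjusted p = 0.0436). *TCF12* was at 42.91 to 44.33 TPM in controls and at 54.04, 43.35 and 44.99 TPM in Amuc_0904 replicates 1, 2 and 3 (log2 fold change 0.12, limma adjusted p = 0.524, and 0.025 without Amuc_0904 replicate 1). *TCF3* was therefore highest in the same libraries as *ID2*, and *TCF12* in replicate 1.

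**Figure D3:**
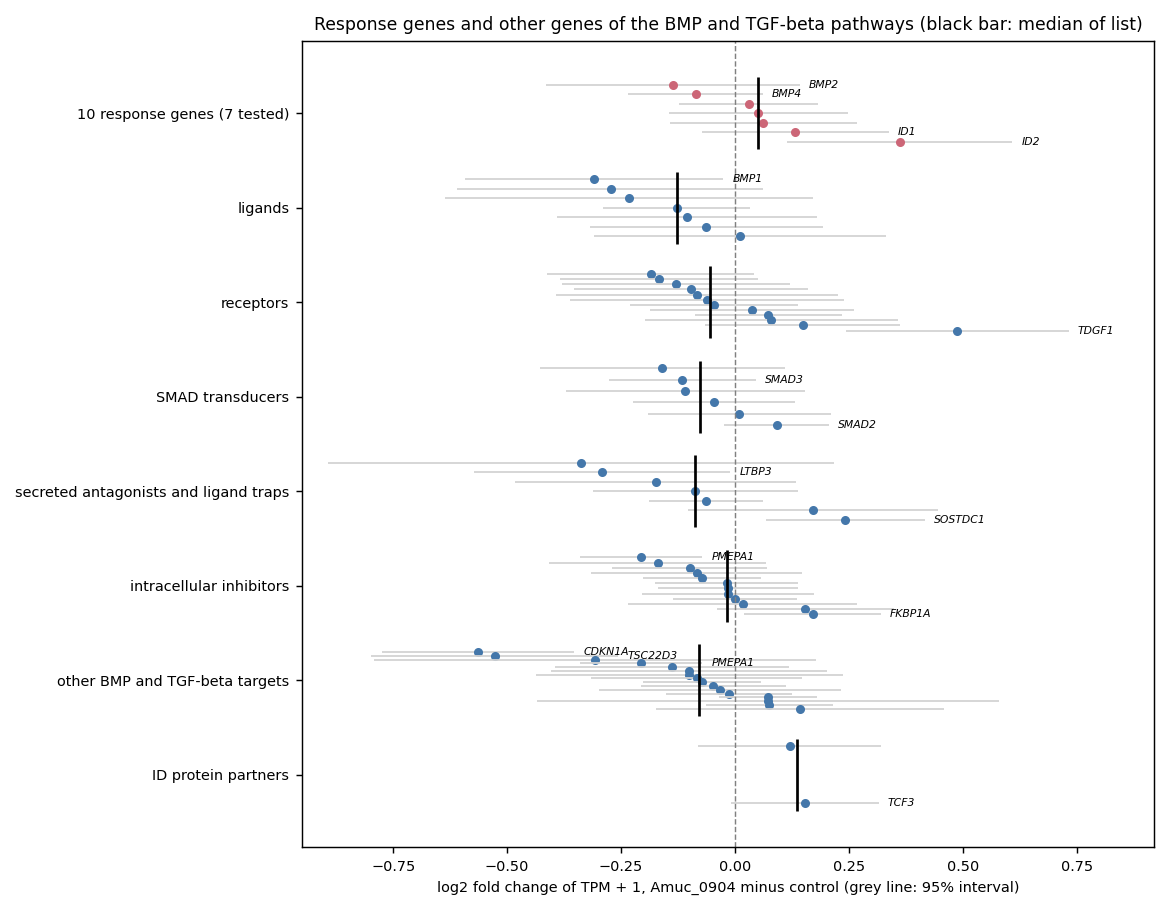
log2 fold change of TPM + 1 (horizontal axis, Amuc_0904 minus Control) for the 7 tested response genes (red) and the tested genes of the other lists (blue), grouped by role, with grey lines for 95% intervals and black bars for list medians. *TDGF1* at 0.49 and *ID2* at 0.36 lie farthest right, and *CDKN1A* at −0.56 and *TSC22D3* at −0.53 farthest left. *PMEPA1*, *SKIL* and *TGIF1* stand in both inhibitor and target lists.

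The differences of the members depended most on which libraries entered the comparison. Over 15 other settings the log2 fold change of *ID2* ran from 0.27 to 0.48 and that of *ID1* from 0.069 to 0.20, and both kept their sign. The log2 fold change of *BMP4* ran from −0.15 to −0.051 and that of *BMP2* from −0.26 to −0.031. *ID2* passed the adjusted threshold in 2 of the 15 settings and *BMP4* in 1.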

How the data were processed

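RNA-seq was measured in 6 libraries of HT-29 cells, 3 per group, and groups were taken from the sample labels. The authors trimmed reads with SeqPrep and Sickle, aligned them with HISAT2, assembled them with StringTie, and deposited TPM values per gene. The submitters' processing notes also name RSEM, edgeR and a mouse build (GRCm38.p6), without tool versions. The gene identifiers are human, so the build behind the values is not known, and positions are those of GENCODE 29 on GRCh38. The deposited TPM sum to 1000000 per library within rounding, and 25 lines of spilled annotation text were left out. TPM keep no depth, so no count test, counting interval or floor was computed.

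Genes reaching 1 TPM in 3 or more libraries entered the fit, made on log2(TPM + 1) by limma 3.58.1 (R 4.3.3) with a mean-variance trend, robust empirical Bayes and condition as the only term. A pseudocount of 1 understates the change of low genes. The pipeline was tested on simulated data drawn from the control means and spreads, without an outlying treated library. That simulation does not give the power for differences as small as those of the members. Changes were called at a Benjamini-Hochberg adjusted p under 0.05 over all 14333 genes. No exact test of single genes is given, since 3 libraries against 3 cannot go below 0.1. The 10 members, the pathway and marker lists and the tests were chosen with earlier results of these data known. Named genes are all members, *SMAD4*, and in each list every gene past the adjusted p, the 3 smallest p and the 2 highest means, and other genes are said to have been named after their values were seen. Alternatives changed the pseudocount, filter, library weights, replicate block, scaling and the libraries left out. Whether replicate numbers pair the libraries is not stated. Deviations of same-numbered libraries, given below, showed no pairing but cannot exclude it.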

Additional observations from a re-analysis of the deposited data

How the results depend on the processing

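The log2 fold changes of *ID1*, *ID2*, *SMAD6*, *SMAD7*, *BMP2* and *BMP4* kept their sign under all 15 alternatives. *TGFBI* turned to −0.0052 without Control replicate 3, within a range of −0.0052 to 0.069 over the libraries left out. The number of all genes called higher was 10 as reported, 3 without the filter, 6 with median-of-ratios scaling, 5 with the replicate block, 1315 with array weights and 2 to 1338 over the libraries left out. The number called lower was 24, then 15 without the filter, 1056 with array weights and 10 to 1269 over the libraries left out. Median-of-ratios scaling gave 6 higher and 28 lower, against 10 and 24. The counts of 1056 or more came with Amuc_0904 replicate 1 left out or with array weights, which keep every library. Among members, array weights called 1 higher, and leaving out a library gave 0 to 1 higher and 0 to 1 lower. Among the other pathway genes, array weights called 5 higher and 9 lower, and leaving out a library gave 0 to 5 higher and 0 to 11 lower. The cause was not tested.

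Same-numbered libraries did not deviate together (correlations 0.046, −0.039 and −0.0047), and 2 of the 6 libraries correlated best with their own number. With the replicate block 5 genes were called higher and 16 lower, 0 of them members, and *ID2* had an adjusted p = 0.303 from limma. Without a filter *ID3* differed by −0.18 and *BAMBI* by −0.049 on the log2 scale (limma adjusted p = 0.694 and 0.877). Depth is unknown, so the counting error of values under 1 TPM cannot be given.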
